A study of Mus musculus with 8 samples.

Results

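Small nucleolar RNA genes were followed across 8 arrays of mouse dendritic cells. They were taken as every gene whose symbol begins with Snord or Snora and that has a probe set naming that gene alone. This gave 73 genes of the 22180 genes with such a probe set, 47 of the C/D box class (Snord) and 26 of the H/ACA box class (Snora). Where a gene had more than 1 probe set, the one with the highest mean over the 8 arrays was used. The set was chosen because Snord73b differs between the experiments of this series, so all comparisons between experiments are given as descriptions without a test. The mean log2 intensity of 45 of the 73 genes, 26 C/D box and 19 H/ACA box, reached 4.06, the median over all probe sets that name 1 gene; 28 genes lay below it, and only the 45 entered the test of SCF.

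The cells were dendritic cells grown from the bone marrow of wild-type female C57BL/6 mice, whose age is not given in the sources used here. GM-CSF at 20 ng/ml, the cytokine that drives this culture, was present throughout, first for 7 days at 21% oxygen and then, after purification on CD11c beads to about 98%, for 2 days at 2% oxygen (about 14 mmHg). Stem cell factor (SCF), which binds and activates the Kit receptor, was then given at 100 ng/ml for 6 h, while the medium cultures were left without it. The work was done 4 times, as experiments BC, D2, E and I, each with its own cells split into an SCF and a medium culture and 1 Affymetrix array per culture. This gave 4 SCF and 4 medium arrays, all from hypoxic cells.

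Small nucleolar RNAs (snoRNAs) are short stable RNAs of the nucleolus that pair with ribosomal RNA precursors. C/D box snoRNAs guide 2'-O-methylation with the proteins fibrillarin, Nop56, Nop58 and Snu13, and H/ACA box snoRNAs guide the change of uridine to pseudouridine with dyskerin (Dkc1), Gar1, Nhp2 and Nop10. Some of them, such as U3, U8, U17 and U22, are needed for cleavage of the precursor instead. Most mammalian snoRNAs are cut out of introns of other genes, often ribosomal protein genes or non-coding snoRNA host genes (Snhg), and outlast the spliced messenger.

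The array medians lay between 3.73 and 3.80 on the log2 scale, and Pearson's r between 2 arrays across all probe sets lay between 0.9902 and 0.9949. Of 8 dendritic cell markers, 7 had a probe set of their own and all 7 reached 4.06. Of the other markers, 5 of 6 for macrophages, 1 of 6 for neutrophils, 1 of 6 for mast cells, 1 of 4 for B cells and 0 of 5 for T and NK cells reached it; the 4 erythroid markers were not analysed here. The 5 macrophage markers all had their highest experiment mean in E, and 2 of the 5 had their lowest in BC. Their median deviation from the mean over arrays was 0.20 in the SCF array and 0.22 in the medium array of E, and -0.28 in the SCF array and 0.06 in the medium array of BC, on the log2 scale. The 1 mast cell marker above 4.06 had experiment means up to 1.01 apart. In bulk RNA, fewer cells of a type and less RNA per cell cannot be told apart.

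Snord73b, a C/D box snoRNA gene inside the ribosomal protein gene Rps3a1, had log2 intensities of 6.65, 7.73, 7.98 and 7.71 in the SCF arrays of BC, D2, E and I. In the medium arrays of the same experiments it had 6.58, 7.66, 7.96 and 7.44. Both BC arrays lay below the 6 others, and within every experiment the SCF and the medium array were close. Its experiment means, each the mean of an SCF and a medium array, were 6.62, 7.70, 7.97 and 7.57, a range of 1.35 (2.55-fold), while its largest difference within an experiment was 0.27.

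**Figure D1:**
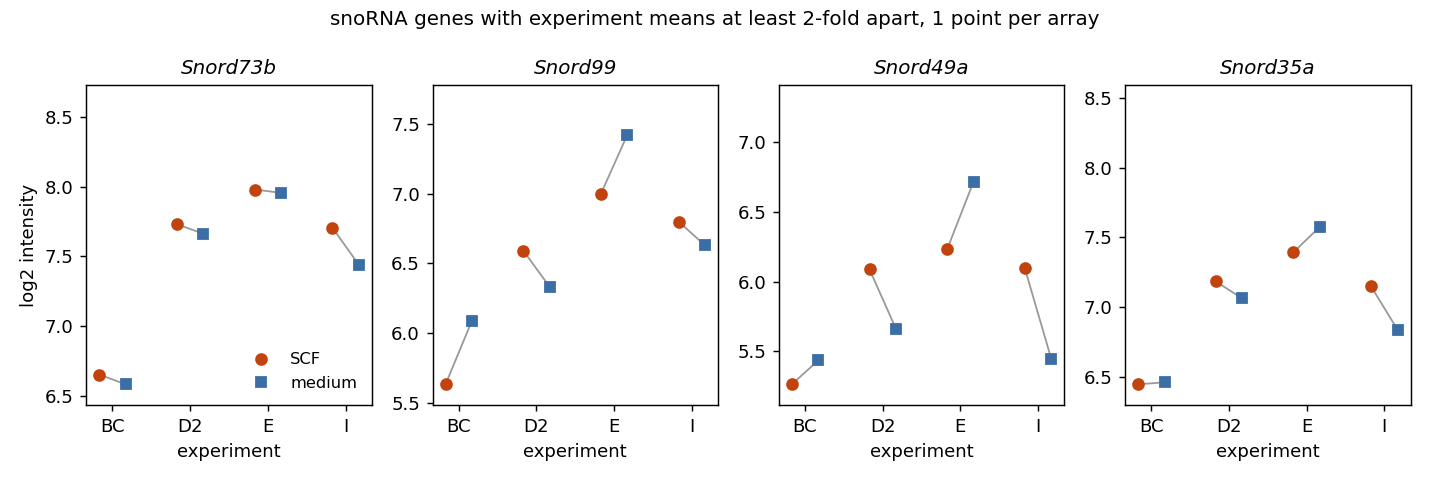
Log2 intensity (vertical axis) of the 4 snoRNA genes with experiment means at least 2-fold apart in each experiment (horizontal axis), 1 point per array, with grey lines joining the SCF array (circle, left) and the medium array (square, right) of an experiment. All panels span the same number of log2 units. Both BC arrays of Snord73b, at 6.65 with SCF and 6.58 in medium, lie below its 6 other arrays.

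Of the 73 genes, 4 had experiment means at least 2-fold apart, or 5.48%, against 0.234% of all 22180 genes, a share from which nothing is read because the set was chosen on this contrast. The other 3 were also C/D box genes. Snord99, inside the non-coding gene Snhg12, had 5.63, 6.59, 7.00 and 6.80 in the SCF arrays of BC, D2, E and I and 6.09, 6.33, 7.42 and 6.63 in the medium arrays. Snord49a, inside 2410006H16Rik, had 5.26, 6.09, 6.23 and 6.10 in the SCF arrays and 5.43, 5.66, 6.72 and 5.45 in the medium arrays. Snord35a, one of several C/D box snoRNAs in the introns of the ribosomal protein gene Rpl13a that have been studied in metabolic stress, had 6.45, 7.18, 7.39 and 7.15 with SCF and 6.46, 7.06, 7.58 and 6.84 in medium. All of them were lowest in BC and highest in E, with ranges of 1.35, 1.13 and 1.03. For Snord49a the medium array of I, at 5.45, lay close to the medium array of BC, at 5.43. Just outside the 2-fold bound were Snord16a, with a range of 0.94, and Snora75, with 0.92.

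These 2 genes varied differently. Snord16a, inside the ribosomal protein gene Rpl4, had 5.02, 5.91, 5.15 and 4.64 with SCF in BC, D2, E and I and 5.10, 5.18, 5.65 and 4.58 in medium, so it was lowest in I and highest in D2. Snora75, an H/ACA box gene inside the nucleolin gene Ncl, had 4.82, 5.83, 5.26 and 5.54 with SCF and 4.92, 5.33, 6.32 and 5.04 in medium. Its SCF and medium arrays of E lay 1.06 apart, further than its 4 experiment means.

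The remaining genes among the 12 widest ranges followed Snord73b in part. Snord49b had 8.56, 9.24, 9.36 and 9.45 with SCF and 8.56, 8.80, 9.55 and 9.27 in medium, with both BC arrays lowest and a range of 0.90. Snord35b had 5.50, 6.28, 6.31 and 6.12 with SCF and 5.58, 6.02, 6.42 and 5.67 in medium, a range of 0.82. Snord47, inside the non-coding gene Gas5, had 6.73, 7.09, 7.36 and 7.44 with SCF and 6.94, 6.71, 7.85 and 6.90 in medium, a range of 0.77. Its medium array of D2 was the lowest of the 8. The 3 H/ACA box genes in this group were highest in D2 instead of E. Snora23, inside the nuclear import gene Ipo7, had a range of 0.83, Snora28, inside the translation initiation factor gene Eif5, one of 0.78, and Snora16a, inside Snhg12, one of 0.74. Snora16a owed its place to 1 array, the SCF array of D2 at 5.10, with the other 7 between 3.80 and 4.50.

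**Figure D2:**
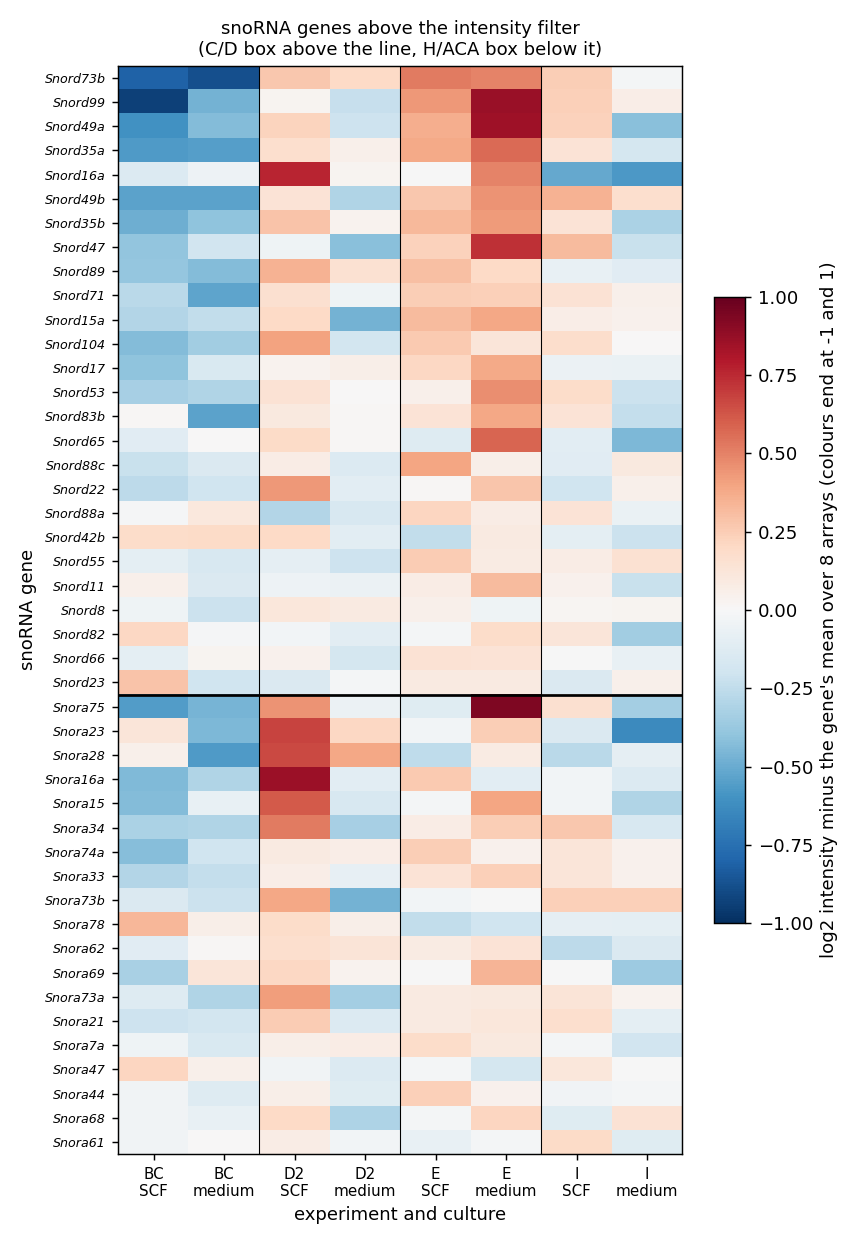
Log2 intensity of each of the 45 snoRNA genes above the filter (rows) in the 8 arrays (columns), as the deviation from the gene's mean over all arrays, in red above it and in blue below it. C/D box genes are above the black line and H/ACA box genes below it, each sorted by the range of the experiment means from 1.35 downward. The top C/D rows are blue in both BC arrays and red in both E arrays, and many H/ACA rows are reddest in the SCF array of D2.

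Over all 73 genes the median range of the experiment means was 0.35, against 0.16 over all genes with 1 symbol. Among the 45 genes above the filter it was 0.46, against 0.21 for all 11309 genes above it. The snoRNA probe sets also differed more within an experiment, since their median absolute difference between the SCF and the medium array was 0.17 above the filter, against 0.09 for all genes there. Ranges of at least 0.5 were found in 21 of the 73 (28.8%, against 3.0% of all genes) and in 20 of the 45, or 44.4%, against 5.56% of all genes above the filter. A range of at least 0.5 that was also wider than every difference within an experiment was found in 15 of the 73 (20.5%, against 2.84% of all genes). Among the 45 there were 14 (31.1%), against 5.3% of all genes above the filter.

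The box classes differed in these counts above the filter. Over all members their median ranges were alike, 0.34 for the 47 C/D box and 0.35 for the 26 H/ACA box genes. Ranges of at least 0.5 were found in 17 of these 47 and 4 of these 26. Among C/D box genes above the filter, 16 of 26 had ranges of at least 0.5, with a median of 0.57, and among H/ACA box genes 4 of 19, with a median of 0.42. With the bound on differences within an experiment added, 12 of 26 C/D box and 2 of 19 H/ACA box genes remained. Length and class overlap, since C/D box genes had a median length of 68 bases and H/ACA box genes of 118.5 bases, with members between 48 and 221 bases. Within the C/D class, the 16 genes under 80 bases had a median range of 0.54 and the 10 longer ones of 0.60.

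BC had the lowest experiment mean in 45 of the 73 genes, or 61.6%, against 19.7% of all genes, and in 28 of the 45 above the filter, or 62.2%, against 20.0%. E had the highest in 39 of the 73, or 53.4%, against 23.1% of all genes, and in 30 of the 45, or 66.7%, against 24.7%. Both held in 26 of the 73 (35.6%, against 7.23%) and in 21 of the 45 (46.7%, against 8.3%). Both BC arrays lay below all 6 other arrays in 20 of the 73 genes, or 27.4%, against 3.43%, and in 18 of the 45, or 40.0%, against 4.59%. These 18 were 13 of 26 C/D box and 5 of 19 H/ACA box genes. Below the filter BC was lowest in 17 of 28 genes. The 5 macrophage markers were highest in E too, but 2 of the 5 were lowest in BC, and their part in this pattern was not tested.

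All 73 genes were found in a RefSeq gene table, and 70 of them lie inside another gene of that table; Snord13, Snord89 and Snord118 do not. Containment was judged by position alone, and whether both genes lie on the same strand was not checked. The containing genes numbered 63, and 11 of these held more than 1 snoRNA gene of the set. In 32 pairs of a snoRNA gene and its containing gene both were above the filter, with 27 containing genes. The snoRNA gene had the wider range of experiment means in 29 of the 32 pairs, and the containing gene in 3, those of Snora47 and Zbed3, Snord11 and Nop58, and Snord23 and Nop53. The median range was 0.46 for the snoRNA genes and 0.19 for the containing genes, with a largest value of 0.48 for a containing gene. All genes above the filter had a median range of 0.21. The snoRNA genes were chosen on this contrast, so nothing is read from these pair counts. BC was lowest in 19 of the 32 snoRNA genes and in 4 of the 27 containing genes, and 10 of the 27 were highest in BC.

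**Figure D3:**
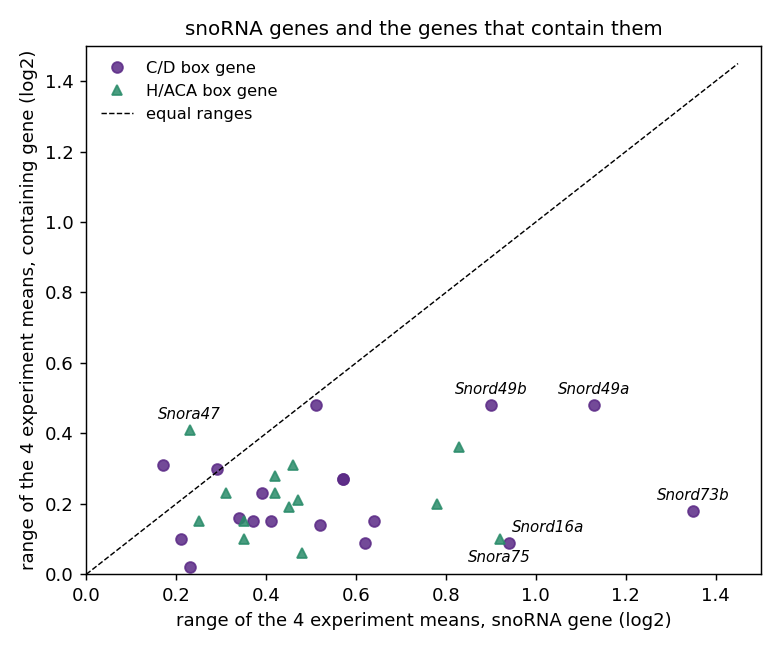
Range of the 4 experiment means of 32 snoRNA genes (horizontal axis, log2) against that of the gene that contains each (vertical axis, log2), 1 point per pair. The dashed line marks equal ranges, and 29 of the 32 points lie below it. Snord73b has a range of 1.35 and its containing gene Rps3a1 one of 0.18.

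Promoters are shown for 4 containing genes that each hold at least 2 genes of the set, including 1 or more of the widest ranges. Neighbours inside 1 gene can then be compared. The sequences are those of RefSeq for GRCm38.p6, on the strand of the gene, from 60 bases before the annotated start to its 20th transcribed base. Capitals mark the first C followed by at least 4 C or T that begins between 10 bases before and 20 bases after the start, the kind of tract found at the start of ribosomal protein and many snoRNA host transcripts. Only the strand of the gene was searched.
Snhg12, chr4:132308618-132308697, plus strand: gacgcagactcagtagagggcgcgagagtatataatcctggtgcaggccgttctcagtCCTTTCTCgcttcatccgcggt
2410006H16Rik, chr11:62602817-62602896, plus strand: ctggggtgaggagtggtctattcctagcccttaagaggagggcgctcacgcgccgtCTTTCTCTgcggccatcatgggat
Rps3a1, chr3:86142649-86142728, minus strand: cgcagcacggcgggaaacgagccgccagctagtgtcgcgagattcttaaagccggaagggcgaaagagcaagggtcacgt
Ncl, chr1:86359436-86359515, minus strand: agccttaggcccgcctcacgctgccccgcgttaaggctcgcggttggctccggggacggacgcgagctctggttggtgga
The Snhg12 and 2410006H16Rik promoters held a tract of 8 bases, and those of Rps3a1 and Ncl held none in that window. Of the 52 promoters of containing genes in the RefSeq table, 28 held such a tract (53.8%), against 12847 of all 32851 promoters (39.1%). Counted by gene, 26 of the 48 containing genes with a promoter there held it in at least 1 promoter (54.2%).

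Inside these containing genes, which were picked because they hold a wide range, neighbours had unlike ranges. Where other containing genes held more than 1 snoRNA gene above the filter, the ranges were closer. They were 0.31 for Snora73a and 0.42 for Snora73b in Snhg3, and 0.37 for Snord88a and 0.41 for Snord88c in 2410002F23Rik. Snhg12 itself lay below the filter, with experiment means of 3.55, 3.68, 3.64 and 3.60 in BC, D2, E and I. Its 4 snoRNA genes had ranges of 1.35 (Snord99), 0.74 (Snora16a), 0.22 (Snora44) and 0.08 (Snora61). In Ncl, whose own range was 0.10, Snora75 had a range of 0.92 and Snord82 one of 0.21. In Rps3a1, whose own range was 0.18 and whose lowest mean was in E, Snord73b had a range of 1.35 and Snord73a one of 0.19. Snord73a lay below the filter, with values of 3.23, 3.39, 3.15 and 3.12 in the SCF arrays and 3.09, 3.18, 3.07 and 3.06 in the medium arrays. In 2410006H16Rik all 3 snoRNA genes, Snord49a, Snord49b and Snord65, were highest in E, with means of 6.48, 9.46 and 5.62 there. Their containing gene was lowest in E, at 8.73 against 9.21 in BC, 9.06 in D2 and 9.13 in I. For Snord65 this rested on the medium array of E, at 5.98, as its SCF array of E, at 5.27, was the lowest with SCF. That gap of 0.71 was wider than its range of 0.51.

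The 4 narrowest ranges above the filter were those of Snora61 (0.08), Snora68 (0.15), Snord23 (0.17) and Snord66 (0.20). Snora61 had 4.87, 4.98, 4.82 and 5.10 with SCF in BC, D2, E and I and 4.91, 4.87, 4.88 and 4.78 in medium. Snora68 had experiment means close together but an SCF array 0.51 above the medium array in D2 and 0.27 below it in I.

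The comparison of SCF with medium asked whether 6 h of SCF altered snoRNA levels in the hypoxic dendritic cells. No snoRNA gene passed the threshold: 0 of 45 had an adjusted p under 0.05 by limma with experiment as a block and Benjamini-Hochberg adjustment over 11761 probe sets, against 0.0% of all probe sets tested. Adjusted p-values began at 0.941. An unadjusted p under 0.05 was found for 1 of the 45 (2.22%), against 4.37% of all probe sets tested. The 95% interval of the change stayed within 1.5-fold in both directions for 41 of the 45 genes, against 99.7% of all probe sets, and reached 2-fold for 0. The 4 whose interval passed 1.5-fold were all H/ACA box genes, and the median SE of the change was 0.099 for the snoRNA genes, against 0.061 over all probe sets tested. Every interval has 7.45 degrees of freedom, 3 of them residual.

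**Figure D4:**
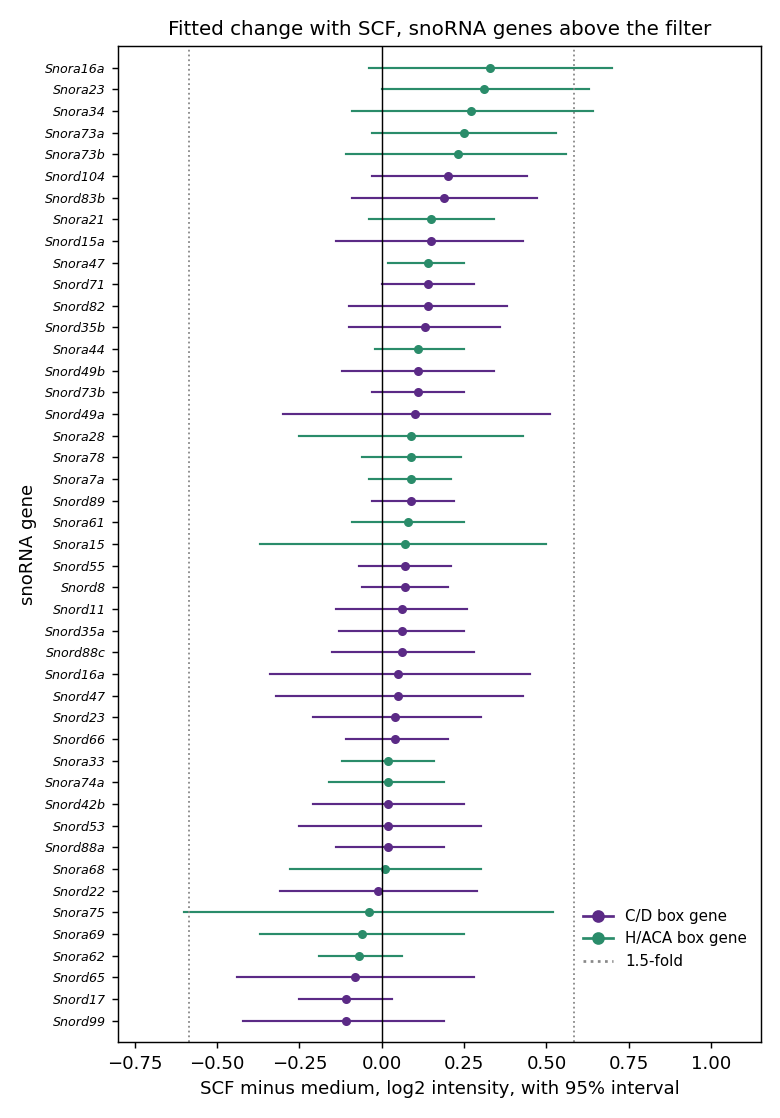
Fitted SCF minus medium difference in log2 intensity (horizontal axis) of the 45 snoRNA genes above the filter (vertical axis), as points with 95% intervals, sorted by the difference. Dotted lines mark 1.5-fold in both directions. The differences lie between -0.11 and 0.33, and the intervals of 41 genes stay between the dotted lines.

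The gene at an unadjusted p under 0.05 was Snora47, an H/ACA box gene inside Zbed3. It had 4.34, 4.09, 4.11 and 4.24 in the SCF arrays of BC, D2, E and I and 4.18, 3.99, 3.95 and 4.13 in the medium arrays. Each SCF array was above its medium partner, by 0.16, 0.11, 0.16 and 0.12, although the groups overlapped. The fitted difference was 0.14 with an SE of 0.05, an interval of 0.02 to 0.25 and an adjusted p of 0.941 by limma. Its mean of 4.13 over the 8 arrays lay just above the filter.

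Snord73b was higher in the SCF array in 4 of 4 experiments, by 0.07, 0.07, 0.02 and 0.27, with a fitted difference of 0.11 (SE 0.06, 95% interval -0.03 to 0.25, limma adjusted p 0.941). Without I the difference was 0.05. Its range between experiments, 1.35 with all 4, was 0.39 without BC, against a difference within an experiment of up to 0.27. In all, 7 of the 73 genes were higher with SCF in 4 of 4 experiments, 4 of them among the 45 above the filter, and 0 were lower in 4 of 4, against 6.24% and 6.62% of all probe sets tested. The 7 were Snord37, Snord43, Snord71, Snora47, Snord73a, Snord73b and Snord89, the last named after its values were seen. Snord37, inside the elongation factor gene Eef2, had the largest mean difference of these, 0.24, but lay below the filter, at 3.13, 3.23, 3.04 and 3.48 with SCF and 2.83, 3.11, 2.94 and 3.01 in medium. Snord71 differed by 0.14 (SE 0.06, 95% interval 0.00 to 0.28), with pairs 0.26, 0.20, 0.00 and 0.09 apart.

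The largest mean differences came from genes whose experiments disagreed. Snora16a had 3.80, 5.10, 4.50 and 4.21 with SCF and 3.94, 4.13, 4.13 and 4.10 in medium, a difference of 0.33 (SE 0.16, 95% interval -0.04 to 0.70, limma adjusted p 0.941) that was -0.14 in BC and 0.97 in D2. Snora23 had 5.35, 5.90, 5.20 and 5.08 with SCF and 4.78, 5.43, 5.47 and 4.59 in medium, a difference of 0.31 (SE 0.13, 95% interval 0.00 to 0.63) that was -0.28 in E and at least 0.46 elsewhere. Of the 21 snoRNA genes named by rule, most were named for their range between experiments and not for this comparison. Leaving out 1 experiment turned the sign of the difference in 11 of the 21. In 16, these included, it turned the sign or moved the value by over 1.5 times. Genes named for the same sign in 4 experiments could not turn. Snora16a was at 0.11 without D2, and Snora23 at 0.51 without E.

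Mean differences above 0 were found in 55 of the 73 genes and in 38 of the 45 above the filter, against 49.8% of all probe sets tested. The median difference was 0.06 over the 73, 0.06 in the C/D class and 0.08 in the H/ACA class, against -0.00039 over all probe sets tested. This value varied by experiment. The median over the 73 genes was highest in D2 (0.19) and I (0.14), lower in BC (-0.03) and lowest in E (-0.10), while the medians over all probe sets tested were -0.01, 0.00, 0.00 and 0.01. Without D2 the median was 0.02, and without E it was 0.13.

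Of the 73 genes, 62 were higher with SCF in D2 and 59 in I, but 32 in BC and 23 in E. Among the 45 above the filter the counts in the order BC, D2, E and I were 19, 41, 14 and 36, against 46.8%, 51.0%, 49.8% and 52.0% of all probe sets tested. Each experiment has 1 array per culture, so these differences between experiments have no test. In D2 the SCF array was at least 0.5 above the medium array for 11 genes, 7 of them H/ACA box, against 0.553% of all probe sets tested. These included Snora73a and Snora73b, the genes of U17, a snoRNA needed for 18S rRNA processing, which both lie in Snhg3. Snora73a had 6.02 with SCF and 5.27 in medium in D2, and Snora73b had 7.12 with SCF and 6.26 in medium, and both differed by 0.17 or less in the other experiments. Both were named after their values were seen. Snhg3 differed by 0.04 in D2. In E the SCF array was at least 0.5 below the medium array for 3 of the 45 genes, against 0.204% of all probe sets, with the widest gap in Snora75.

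Other snoRNAs needed for precursor cleavage are given here for their role, and were named after their values were seen. Snord22, the gene of U22, which takes part in 18S rRNA processing, lies in Snhg1 and had 4.98, 5.67, 5.25 and 5.04 with SCF in BC, D2, E and I and 5.04, 5.13, 5.52 and 5.29 in medium. It was higher with SCF in D2 alone, by 0.54, and its fitted difference was -0.01 (SE 0.13, 95% interval -0.31 to 0.29). Snord118, the gene of U8, which is needed for 5.8S and 28S rRNA, lay below the filter, with experiment means 0.10 apart.

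**Figure D5:**
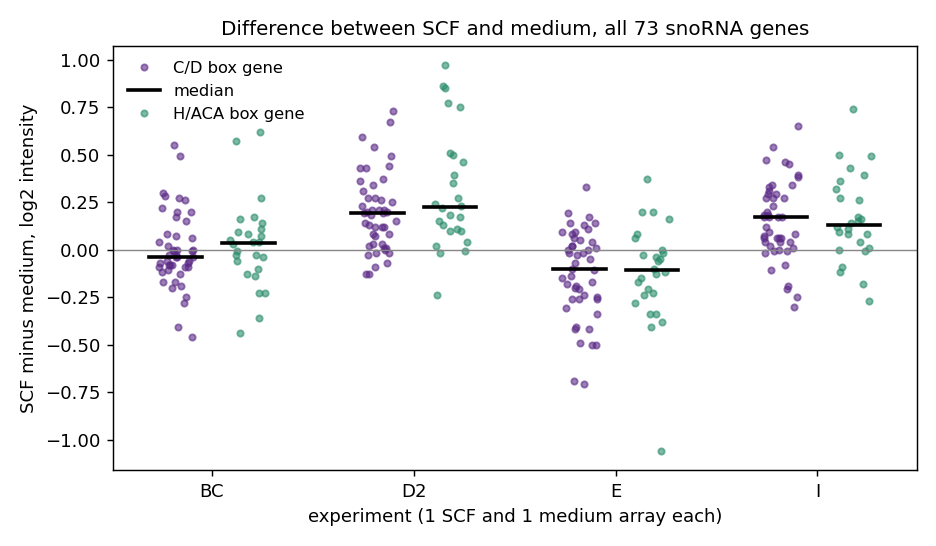
SCF minus medium difference in log2 intensity (vertical axis) of all 73 snoRNA genes in each experiment (horizontal axis), 1 point per gene, with C/D box genes left and H/ACA box genes right and black bars at the class medians. The points are mostly above 0 in D2 and I and mostly below 0 in E, in both classes. The lowest point is Snora75 in E, at -1.06.

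The mean changes of the C/D and H/ACA classes lay close together within each experiment. The mean C/D change minus the mean H/ACA change was -0.12 in D2, -0.03 in BC, -0.01 in I and 0.00 in E, or -0.04 ± 0.05 on average (SD, n = 4 experiments). The C/D class changed by 0.05 ± 0.15 and the H/ACA class by 0.09 ± 0.19 on average (SD, n = 4 each), so the classes lay closer to each other than the experiments did.

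The protein partners of the snoRNAs gave 0 calls in every list. Of the 4 core C/D proteins, 3 had a probe set of their own; Nop56 differed by 0.06, Nop58 by 0.02 and Snu13 by -0.03 with SCF, and fibrillarin was not analysed here. Of the 4 core H/ACA proteins, Gar1 was lower with SCF in 4 of 4 experiments, at 5.65, 5.80, 5.60 and 5.64 with SCF and 5.67, 6.21, 5.79 and 5.73 in medium. Its difference of -0.17 (SE 0.07, 95% interval -0.34 to -0.01) had an unadjusted limma p of 0.0432 and an adjusted p of 0.941. Dkc1, the pseudouridine synthase, differed by -0.12, Nop10 by -0.06 and Nhp2 by -0.01.

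Of 27 assembly and processing factors above the filter, 2 were lower and 0 higher at an unadjusted p under 0.05, against 2.37% lower and 2.0% higher of all probe sets tested. Naf1, which assembles H/ACA particles, had 4.87, 4.74, 4.77 and 4.82 with SCF and 5.23, 4.96, 5.10 and 4.83 in medium, a difference of -0.23 (SE 0.07, limma adjusted p 0.941). Parn, a ribonuclease that trims the ends of H/ACA RNAs, had 6.09, 6.24, 6.19 and 6.04 with SCF and 6.25, 6.45, 6.31 and 6.20 in medium, a difference of -0.16 (SE 0.05, limma adjusted p 0.941). Both were lower with SCF in 4 of 4 experiments, though for Naf1 the difference in I was 0.00 after rounding. The 13 U3 and pre-rRNA partners gave 0 genes at an unadjusted p under 0.05, and the median range of their experiment means was 0.16, as in the assembly factors.

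Of 58 host genes above the filter, Snhg15 alone had an unadjusted p under 0.05. It had 6.64, 6.27, 5.89 and 6.48 with SCF and 6.27, 6.00, 5.79 and 6.21 in medium, a difference of 0.25 (SE 0.06, limma adjusted p 0.941). Other small RNA genes, mostly microRNA genes, also had wide ranges, with a median of 0.31 over the 109 above the filter. Mir15a was lowest in BC, with experiment means of 5.52, 6.76, 6.49 and 6.54 in BC, D2, E and I. The Y RNA gene Rny3 was lowest in BC and highest in E, with 7.02, 7.46, 7.80 and 7.39. Mir505, with a range of 1.05, was instead lowest in E and highest in D2, with 5.72, 6.44, 5.38 and 5.82. Rnu3a, the gene of the snoRNA U3, had a range of 0.88 and was lowest in I. BC was the lowest in 15 of the 109 and E the highest in 18, against 20.0% and 24.7% of all genes above the filter. At an unadjusted p under 0.05, 8 of the 109 were higher and 0 lower with SCF, against 2.0% higher and 2.37% lower of all probe sets tested. The 8 included Terc, the H/ACA-type RNA of telomerase, which differed by 0.20 (SE 0.07, limma adjusted p 0.941). Histone genes, whose messengers mark dividing cells, were lowest in BC in 0 of 8.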

How the data were processed

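Each array gave 1 deposited intensity for every probe set on a linear scale, obtained by the authors with RMA according to the submitters' processing notes, which name no version or filter. The intensities were turned to log2 without a pseudocount and not normalized again. Of 41345 probe sets, 23521 named 1 gene in the platform annotation, 1814 several and 16010 none; 43 probe sets naming a snoRNA among several genes were left out of the set. Groups and experiments came from the sample titles.

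SCF and medium arrays were set against each other in limma 3.58.1 (R 4.3.3, functions lmFit and eBayes), two-sided and blocked by experiment, over the 11761 single-gene probe sets with a mean log2 intensity of at least 4.06 (16.7 linear), in place of a detection call, which the table lacks. The threshold was an adjusted p of 0.05 after Benjamini-Hochberg. With 4 arrays in a group, precision is limited by their number. Experiments are biological replicates per the series design; after removal of group means, the arrays of an experiment correlated at 0.467, 0.415, 0.432 and 0.377 in BC, D2, E and I. The fit was tested on simulated data. No 2 arrays held identical values.

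The snoRNA genes and all lists were chosen with earlier results of these data known. Named were Snord73a and Snord73b, the 12 widest ranges of experiment means, up to 6 changes in each direction with the same sign in 4 experiments, the 4 narrowest ranges above the filter, the genes containing these (some are not reported here), and from the lists up to 4 by smallest p and 4 by widest range. Containing genes and promoters came from RefSeq tables of GRCm38.p6, used for names and sequence since the build of the arrays is not given in the sources used here. Alternatives were no block, a random block, 2 other scalings, averaged probe sets, other filters, a variance trend, each experiment left out and, chosen after seeing the data, arrays of 1 culture only.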

Additional observations from a re-analysis of the deposited data

Results flagged for a closer look

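Snord49a had 5.26 in the SCF array of BC, far from the other 3 SCF arrays at 6.09 to 6.23, so that this array stood apart from its group. It was the 1 such case among 42 groups of 4 arrays checked. The rate by chance, about 1 in 20, is no guide here, since Snord49a was named for its wide range between experiments. Its medium array in BC was the lowest in medium too, at 5.43, near the 5.45 of the medium array of I.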

How the results depend on the processing

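The count of 0 snoRNA genes called between SCF and medium was the same in every alternative run, including the fit with no replicate block. The limma count at an unadjusted p under 0.05 was 1 of 45 as reported. For the other runs, the share of all features tested in the same run is in brackets. The count was 0 with no replicate block (0.995%) and 0 with repeated quantile normalization (4.62%). It was 2 with experiment as a random block (3.5%) and 2 of 13 with the stricter filter (7.38%). Averaged probe sets gave 3 (4.44%), a variance trend 6 (5.37%) and no filter 7 of 73 (3.45%). With an experiment left out it lay between 1 without I (5.69%) and 7 without E (4.45%). The count of 4 genes with experiment means at least 2-fold apart was 8 from the medium arrays only and 6 from the SCF arrays only, and with an experiment left out between 0 (without BC) and 4, with 1 without E. The range of Snord73b was between 0.39 (without BC) and 1.35 with an experiment left out. Medians and class differences moved by less than the spread between experiments. Of 228 values of named genes, 213 kept their direction and 15 turned. Changes of block, filter or variance trend leave the difference itself unchanged, so values from those runs could not turn. Averaging could not turn them either, as no named gene had a further probe set. Leaving out 1 experiment turned 11 of the 21 named genes. Snora68, at 0.01, was -0.01 with array medians equalized and -0.00057 after quantile normalization. With an experiment left out, the difference lay between -0.24 and 0.0024 for Snord99, -0.08 and 0.30 for Snord49a, -0.03 and 0.14 for Snord35a, -0.18 and 0.24 for Snord16a, -0.22 and 0.30 for Snora75, -0.00068 and 0.21 for Snord49b, -0.08 and 0.24 for Snora28, -0.11 and 0.24 for Snord47, -0.15 and 0.10 for Snora68, -0.11 and 0.12 for Snord23, and -0.02 and 0.10 for Snord66. Fewer arrays or fewer genes enter the reduced fits; other causes were not tested. Signal over background is unknown, and genes below the filter have no test.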

Other observations

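The 43 probe sets that name a snoRNA among several genes belong to no comparison above. They had a median range of experiment means of 0.34, against 0.16 over all genes with 1 symbol. BC was lowest in 15 of the 43 and E highest in 14, against 19.7% and 23.1% of all genes with 1 symbol. In the 73 genes of the set these counts were 45 and 39. The median SCF minus medium difference of the 43 probe sets was highest in BC, at 0.27, and close to 0 elsewhere, at 0.00 in D2, -0.04 in E and -0.05 in I.

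The gene of U3, the most abundant C/D box snoRNA, is named Rnu3a in the annotation and so lies outside the symbol rule. It had 5.51, 6.08, 5.60 and 4.88 with SCF in BC, D2, E and I and 5.91, 5.65, 5.55 and 5.08 in medium, with a range of experiment means of 0.88, and it was lowest in I.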
